A study of Mus musculus with 24 samples.

Results

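Myeloid priming genes are genes of the granulocyte and monocyte lineages that blood stem cells can transcribe at low levels before they differentiate. The genes taken as members were *Mpo*, *Elane*, *Prtn3* and *Ctsg* (granule proteins), *Csf1r* and *Csf3r* (receptors), and *Cebpa*, *Cebpb*, *Spi1* and *Irf8* (transcription factors). They were chosen by name, and 8 of these 10 genes had a row among the 18762 genes of the deposited table. The levels of *Ctsg* and *Irf8* were not analysed here. The RNA came from LSK-SLAM cells, the Lin−Sca-1+c-Kit+CD48−CD150+ bone marrow fraction that is enriched for hematopoietic stem cells (HSCs), of WT C57BL/6 mice. The 5 young mice were 4 to 5 months old and the 7 old mice 20 to 22 months old according to the sample labels. The ages that the paper gives are higher for both groups. No mouse received a treatment that the labels mention, and each library was made from 300 pg of ribosome-depleted RNA of 15000 sorted cells. The labels list 24 samples, 2 for each of the 12 mice, which share 1 column of values and were counted once.

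Neutrophils store myeloperoxidase and a family of serine proteases in their azurophil granules. These proteins are made in large amounts by granulocyte progenitors and promyelocytes, and the genes are then switched off, so that mature neutrophils hold the proteins but little of the mRNA. PU.1 (encoded by *Spi1*) and C/EBPα (encoded by *Cebpa*) drive this programme, C/EBPβ (encoded by *Cebpb*) takes part when granulocytes are needed in an emergency, and the receptors for G-CSF (*Csf3r*) and M-CSF (*Csf1r*) receive the signals for granulocyte and monocyte growth. HSCs of old mice are known for producing more myeloid relative to lymphoid cells, so the age comparison asks whether myeloid genes are transcribed differently in the stem cell fraction itself.

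*Prtn3* and *Elane* lie next to each other on chromosome 10, on the plus strand, with 3137 bases between them in RefSeq (GRCm38.p6), while *Mpo* lies on chromosome 11. The promoters of these 3 genes are shown because the results below turn on how far their transcripts moved together. Each window runs from 250 bases before the RefSeq start site to 50 bases after it, on the plus strand of GRCm38.p6, and capitals mark the letters GAGGAAGT, the core that PU.1 and other ETS factors can bind. The windows are chr11:87793534-87793833 for *Mpo*, chr10:79886062-79886361 for *Elane* and chr10:79879417-79879716 for *Prtn3*.
Mpo: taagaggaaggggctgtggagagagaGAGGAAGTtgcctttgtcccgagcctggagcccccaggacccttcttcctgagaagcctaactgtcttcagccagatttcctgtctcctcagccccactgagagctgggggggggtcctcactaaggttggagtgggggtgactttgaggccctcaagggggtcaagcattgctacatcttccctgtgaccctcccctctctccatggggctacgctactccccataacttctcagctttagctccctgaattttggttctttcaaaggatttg
Elane: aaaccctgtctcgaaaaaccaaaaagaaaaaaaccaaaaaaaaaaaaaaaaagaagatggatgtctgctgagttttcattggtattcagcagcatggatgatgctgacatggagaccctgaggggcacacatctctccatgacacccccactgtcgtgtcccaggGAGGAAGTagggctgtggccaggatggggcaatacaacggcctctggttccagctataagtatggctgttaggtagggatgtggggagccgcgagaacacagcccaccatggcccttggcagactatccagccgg
Prtn3: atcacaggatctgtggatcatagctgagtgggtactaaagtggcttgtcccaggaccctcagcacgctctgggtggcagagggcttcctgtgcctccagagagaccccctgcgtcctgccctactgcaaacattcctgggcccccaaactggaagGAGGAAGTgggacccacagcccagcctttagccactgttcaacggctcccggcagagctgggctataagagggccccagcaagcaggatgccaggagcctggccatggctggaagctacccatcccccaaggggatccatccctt
The core began 224 bases before the start site in *Mpo*, 85 bases before it in *Elane* and 95 bases before it in *Prtn3*, and it was searched on both strands. Of all 32851 promoter windows of the same length, 3.2% held it. The other 3 members with both a row and a RefSeq promoter, *Csf3r*, *Cebpa* and *Cebpb*, did not hold it in their windows, nor did the windows of *Ctsg* and *Irf8*. The TATA box letters TATAA were found once each in *Elane* and *Prtn3*, 31 and 32 bases before the start site. Counted from the start site, they also began at −30 in *Cebpa* and at 20 and 21 in *Cebpb*. In *Irf8* and *Ctsg* they began at −31 and −236. The *Mpo* and *Csf3r* windows did not hold them, and 24.9% of all windows did. The C/EBP letters TTNCNNAA and the RUNX letters TGTGGT were in none of the 6 windows of members with a row, against 40.7% and 16.8% of all windows, and the MYB letters AACNG were in all 6, against 80.3%. A match of letters is a description of the sequence and shows no binding, and the lack of one says only that these letters are not in this window.

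Values are normalised read counts, which the authors scaled for library size and composition and gave per M (mega) reads. Whole reads could be recovered from them, between 0.861 and 5.12 M per mouse, so that 3 reads, taken as the detection floor, stood for 0.583 to 3.69. Mouse names in the labels carry a final A or B, whose meaning the labels do not state. Letter A was carried by 2 young (1 and 2) and 4 old mice (1, 5, 6 and 7), and letter B by 3 young (3, 4 and 5) and 3 old mice (2, 3 and 4). Mice with letter A had fewer reads (median 2.12 M against 4.53 M) and a higher median value over all genes, 17.7 to 27.6 against 7.97 to 16.7, with no overlap on either measure, and values are therefore also given within each letter. The 12 markers of the stem cell fraction, such as *Kit*, *Slamf1* and *Procr*, summed to 2972 to 4767 in young and 1672 to 5275 in old mice, the lowest in old mouse 5. Markers of progenitors (*Cd34*, *Flt3* and *Cd48*) summed to 167 to 293 in young and 98.0 to 139 in old mice. Of these markers the gate selects only against CD48, so cells with the others can lie inside it. Nothing in the labels says whether the mice were processed together. The exact permutation p-values measure the spread between these animals. Those of limma, edgeR and DESeq2, and the limma SEs, are moderated, which means that they also draw on the variance of other genes.

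Per kb of exon, which is the scale on which genes can be compared, *Csf3r* and *Prtn3* had the highest medians over the 12 mice, 38.3 and 37.5 normalised read counts per kb. *Spi1* (23.9), *Elane* (23.1), *Mpo* (17.8) and *Cebpb* (17.3) followed, and *Cebpa* (3.55) and *Csf1r* (3.28) were lowest. Neighbours in this order were often exchanged between mice. *Csf3r* was above *Prtn3* in 9 mice, *Spi1* above *Elane* in 7, *Mpo* above *Cebpb* in 8 and *Cebpa* above *Csf1r* in 4, whereas *Cebpb* was above *Cebpa* in all 12 mice. The spread was unequal: the highest mouse was 2.32 times the lowest for *Csf3r*, 2.94 times for *Prtn3* and 3.33 times for *Spi1*, but 185 times for *Elane* and 223 times for *Mpo*. As a benchmark for background reads, chosen after values were seen, the 1068 olfactory receptor genes, which are not expected to be used in blood cells, were taken per kb in the same mouse. Their 95th percentile lay between 5.45 and 11.8 in mice with letter A and between 1.89 and 5.38 in mice with letter B. *Csf3r* and *Prtn3* were above it in 12 of 12 mice, *Spi1*, *Elane* and *Cebpb* in 11, *Mpo* in 10, *Cebpa* in 3 and *Csf1r* in 1. The levels of *Cebpa* and *Csf1r* were thus mostly within the range of background reads, old mouse 4 fell to that range for *Mpo* and *Elane*, and old mouse 3 for *Mpo* (4.10 per kb against 4.71).

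**Figure D1:**
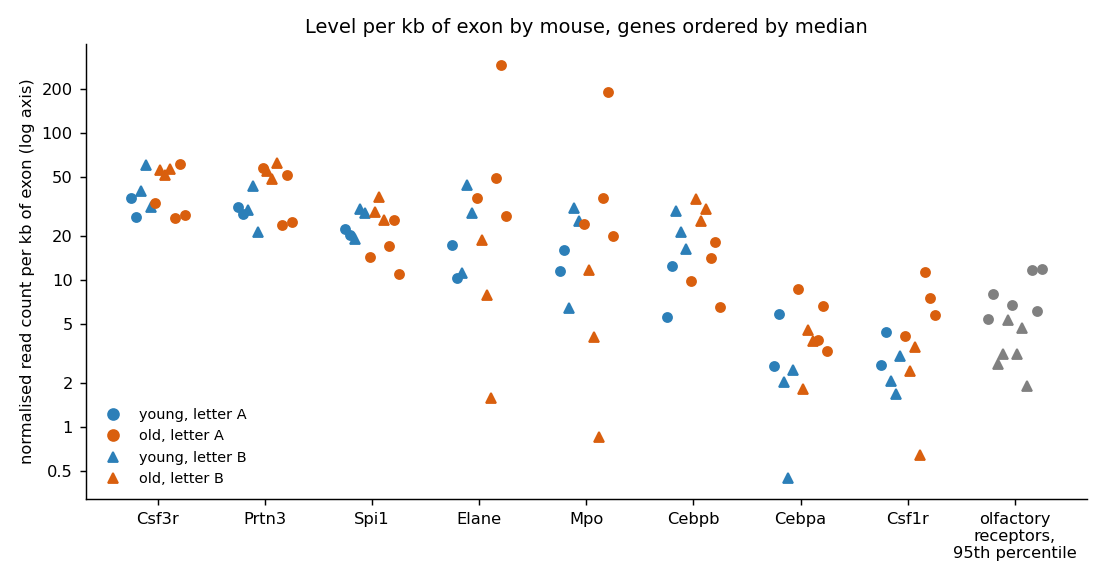
Normalised read count per kb of exon (log axis) for the 8 genes, ordered by median, with 1 point per mouse (blue young, orange old, circles letter A, triangles letter B), and in grey the 95th percentile of the 1068 olfactory receptor genes in each mouse. *Csf3r* and *Prtn3* stay above the grey points of their own mice, *Elane* and *Mpo* spread 185-fold and 223-fold, and *Csf1r* and *Cebpa* lie at the height of the grey points.

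None of the 8 members was called between the ages by limma over all mice at an adjusted p under 0.05, against 0.105% of the 12354 genes tested (12 higher and 1 lower in old mice). The count was also 0 with the letter as a covariate, where 0.299% of genes were called. At an unadjusted p under 0.05, 0 members passed in the first fit, against 3.95% of all tested genes, and 1, *Prtn3*, in the second, against 5.2%. With edgeR and DESeq2 on the recovered reads 0 members were called as well, where DESeq2 gave no adjusted p for *Cebpa*. The median log2 difference of the 8 members was 0.28, with 6 above 0, and that of all tested genes −0.02. No member had ages that did not overlap, against 0.461% of tested genes.

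*Mpo* encodes myeloperoxidase, the heme enzyme with which neutrophils make hypochlorous acid. In mice with letter A its normalised read count was 39.5 and 54.3 in young mice 1 and 2 and 82.3, 125, 651 and 67.6 in old mice 1, 5, 6 and 7. With letter B it was 22.2, 106 and 86.1 in young mice 3, 4 and 5 and 40.0, 14.0 and 2.92 in old mice 2, 3 and 4. Old mice were thus above every young mouse with letter A, whereas with letter B the ages overlapped and the lowest values were those of old mice. Old mouse 6 was the highest of all 12 mice (1379 reads, counting interval 617 to 686) and old mouse 4 the lowest (15 reads, counting interval 1.63 to 4.81), where both intervals are exact Poisson 95% intervals on the normalised read count and cover counting error only. Young mice averaged 61.6 ± 34.1 (SD, n = 5) and old mice 140.4 ± 229 (SD, n = 7), or 55.3 ± 45.6 (SD, n = 6) in old mice without old mouse 6. The log2 difference was −0.05 ± 0.85 (SE, limma adjusted p = 1.0), and the two-sided exact permutation test over the 792 splits into 5 and 7 gave p = 0.966. The sign of this difference rested on single mice, since it was 0.58 without old mouse 4 and −0.65 without old mouse 6. In bulk RNA, fewer cells with a transcript and less RNA per cell cannot be told apart.

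*Elane* encodes neutrophil elastase, a serine protease of the same granules. With letter A it was 17.1 and 10.1 in young mice 1 and 2 and 35.7, 48.9, 288 and 27.1 in old mice 1, 5, 6 and 7. With letter B it was 11.0, 43.8 and 27.9 in young mice 3, 4 and 5 and 18.5, 7.83 and 1.56 in old mice 2, 3 and 4. The order of the mice was nearly that of *Mpo*, again without overlap of the ages for letter A and with overlap for letter B. Young mice averaged 22.0 ± 14.1 (SD, n = 5) and old mice 61.1 ± 102 (SD, n = 7), 23.3 ± 17.7 (SD, n = 6) without old mouse 6. The log2 difference was 0.34 ± 0.80 (SE, limma adjusted p = 1.0; exact permutation test, p = 0.734), and it turned to −0.24 without old mouse 6. On the recovered reads it was 1.46 with edgeR and 1.47 with DESeq2, and not called.

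*Mpo* and *Elane* went in opposite directions with age in the 2 letters. Old minus young, *Mpo* was 1.64 ± 0.56 on the log2 scale (SE) with letter A and −2.16 ± 0.54 with letter B, and *Elane* 2.13 ± 0.60 and −1.71 ± 0.61. These SEs, and the limma p-values below, are moderated and rest partly on the variance of other genes. They can be smaller than these few mice alone would give. The difference between the letters, tested as an age by letter interaction, was −3.80 ± 0.96 (SE) for *Mpo* (unadjusted p = 0.00051, limma adjusted p = 0.605) and −3.85 ± 0.99 for *Elane* (unadjusted p = 0.000562, limma adjusted p = 0.605), so neither was called across all genes, of which 0.0162% (2 genes) were. It was −3.08 and −3.11 without old mouse 6. Within letter B, *Mpo* was the 1 member called (limma adjusted p = 0.0464), against 0.809% of genes, with 2 of the 3 old mice under the olfactory benchmark, and *Elane* missed the threshold (limma adjusted p = 0.299). Within letter A, 0 members and 0.00809% of genes were called. The ages did not overlap for 2 members with letter A, *Mpo* and *Elane*, against 10.3% of tested genes, and for 1 member with letter B, *Prtn3*, against 12.9%. The exact permutation test of single genes within a letter allowed 15 splits for A and 20 for B, with smallest p values of 0.0667 and 0.1, and gave p = 0.2 for *Mpo* and for *Elane* in each.

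**Figure D2:**
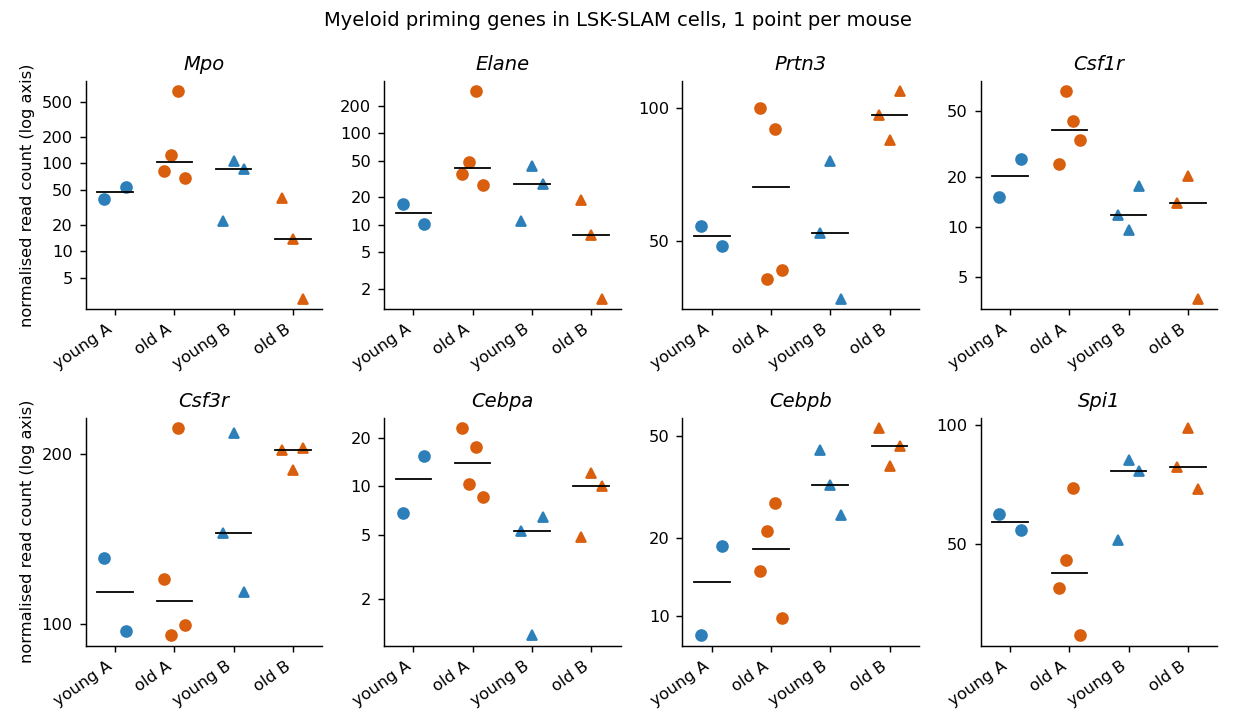
Normalised read count (log axis) of each of the 8 genes, with 1 point per mouse, by age (blue young, orange old) and label letter (circles A, triangles B), and black lines at group medians. *Mpo* and *Elane* are higher in old than in young mice with letter A and reach their lowest values in old mice with letter B, *Prtn3* is highest in old mice with letter B, and *Cebpb* and *Spi1* are higher with letter B.

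*Prtn3* encodes proteinase 3, the protease most like elastase in sequence and position, yet its values followed another pattern. With letter A it was 54.1 and 48.6 in young mice 1 and 2 and 99.9, 41.0, 89.7 and 43.0 in old mice 1, 5, 6 and 7. With letter B it was 52.2, 75.7 and 37.0 in young mice 3, 4 and 5 and 96.4, 84.5 and 109 in old mice 2, 3 and 4. Old mouse 4, the lowest for *Mpo* and *Elane*, was the highest for *Prtn3*, and old mouse 6, far above all others for *Mpo* and *Elane*, was below 3 other old mice. The mean of young mice was 53.5 ± 14.1 (SD, n = 5) and that of old mice 80.5 ± 27.4 (SD, n = 7), a log2 difference of 0.53 ± 0.27 (SE, unadjusted p = 0.0632, limma adjusted p = 1.0; exact permutation test, p = 0.116). With the letter as a covariate it was 0.59 ± 0.24 (unadjusted p = 0.0194, limma adjusted p = 0.728). Without old mouse 5 or old mouse 7, the 2 old mice with low values and the fewest reads, the exact permutation test gave p = 0.0368 and p = 0.0411, neither adjusted for the 8 genes tested. With letter B all 3 old mice were above all 3 young mice, for which the exact permutation test gave p = 0.1, the smallest that this design allows, and limma an adjusted p of 0.0932.

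The ratio of *Mpo* to *Elane* was nearly constant while both genes varied. It lay between 1.79 and 3.08 in 11 mice and at 5.38 in young mouse 2, a 3.0-fold range in all, whereas the ratio of *Mpo* to *Prtn3* was 0.0268 for old mouse 4 and 7.26 for old mouse 6, its lowest and highest values and a 271-fold range. Within each letter, log2 values centred on the age means gave a Pearson r between *Mpo* and *Elane* of 0.95 for A (6 mice, exact permutation p = 0.0153, adjusted p = 0.0458 over 6 relations) and 0.99 for B (6 mice, exact permutation p = 0.00278, adjusted p = 0.0167). Spearman's rho was 0.83 (exact permutation p = 0.0583, adjusted p = 0.175) and 0.94 (exact permutation p = 0.0167, adjusted p = 0.1). Without the 2 mice farthest from the median of *Mpo*, r was 0.95 for B but 0.43 for A, so that the relation in A rested on those mice. The 4 relations of *Prtn3* with *Mpo* and *Elane* had r between −0.07 and 0.48 and none passed (exact permutation p between 0.347 and 0.982, adjusted p between 0.694 and 0.982), with rho between 0.09 and 0.26 (exact permutation p between 0.658 and 0.919, adjusted p = 0.919). Centring on age means ties the values of mice of 1 age to each other, so that these permutation p-values are approximate. With letter A, the 2 young mice deviate equally and in opposite directions for every gene. The libraries of a letter share their range of depth, and depth was not part of these correlations.

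**Figure D3:**
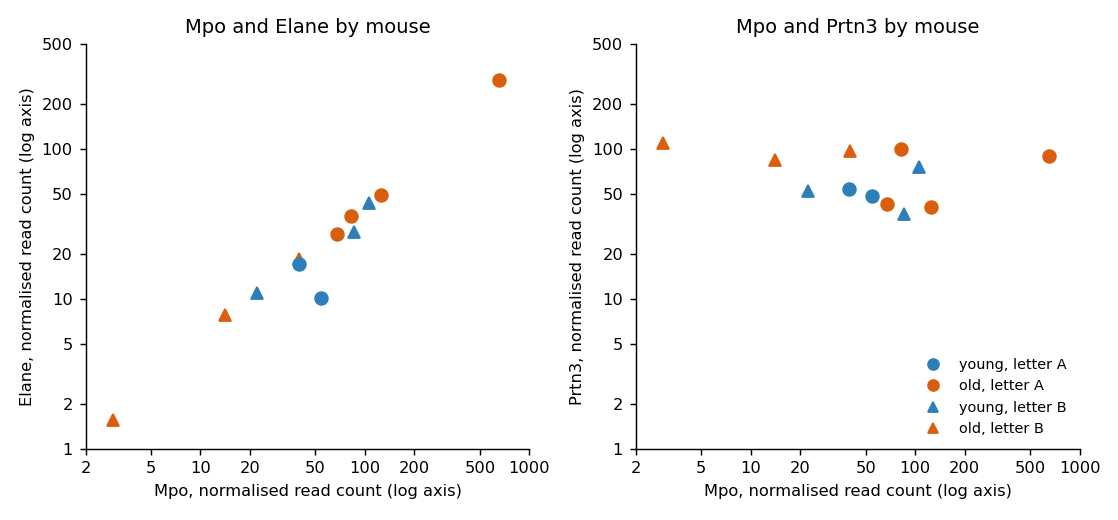
Normalised read counts of *Elane* (left) and *Prtn3* (right) against *Mpo* (log axes), with 1 point per mouse, coloured by age (blue young, orange old) and shaped by label letter (circles A, triangles B). The *Elane* points follow a line over the 223-fold range of *Mpo*, from old mouse 4 to old mouse 6, while *Prtn3* stays between 37.0 and 109 over the same range.

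*Prtn3* overlaps the gene *Plppr3*, which lies on the opposite strand. Of the 50-base words of *Prtn3* transcripts, 6.45% also occur in other genes, and *Plppr3* is the gene that shares the most. Whether strand was used in counting is not given in the sources used here, so reads of the overlap cannot be assigned to either gene with certainty. For *Plppr3* the mean was 51.5 ± 9.43 (young, SD, n = 5) and 77.0 ± 19.8 (old, SD, n = 7), a log2 difference of 0.55 ± 0.20 (SE, limma adjusted p = 0.904) beside 0.53 for *Prtn3*, and its highest value, 113, was in old mouse 4, as for *Prtn3*. Per kb of exon it was lower, 11.8 ± 2.16 and 17.7 ± 4.54 (SD) against 30.9 ± 8.13 and 46.5 ± 15.8 for *Prtn3*. The within-letter r between *Plppr3* and *Prtn3* was 0.27 for A (rho 0.37) and 0.75 for B (rho 0.83), and neither passed (6 mice each, exact permutation p = 0.562 and p = 0.0833, adjusted p = 0.562 and 0.167 over these 2 relations, rho exact permutation p = 0.497 and p = 0.0583, adjusted p = 0.497 and 0.117). Without the 2 mice farthest from the median of *Plppr3*, r was −0.69 for A and 0.96 for B. *Plppr3* was looked at after the values of *Prtn3* were seen. *Mpo* overlaps *Gm11505* on the opposite strand. Of its words, 9.46% are shared with other genes, the most with *Gm11505*, and *Elane* shares none with another gene.

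Markers of neutrophils moved with *Mpo* and *Elane* in part of the mice. The sum of these markers does not tell the stage of the cells that carry them. The 7 marker genes with a row (*S100a8*, *S100a9*, *Camp*, *Ngp*, *Ltf*, *Lcn2* and *Mmp8*) summed to 167 to 218 in young and 378 to 4035 in old mice with letter A, and to 213 to 879.6 in young and 149 to 164 in old mice with letter B, so that old mice were above young mice with letter A and below them with letter B, as for the *Mpo* medians. The highest sum, 4035, was in old mouse 6. The sum was 1006 in old mouse 5, 879.6 in young mouse 5 and 810.4 in old mouse 7. Among the 3 old mice with letter B, however, the marker sum stayed between 149 and 164 while *Mpo* went from 40.0 to 2.92, and young mice 3 and 4 had sums of 216 and 213 with *Mpo* at 22.2 and 106. None of the 7 markers was at 0 in any mouse. The 7 monocyte and macrophage markers with a row summed to 33.6 to 119 in young and 33.6 to 279.5 in old mice, and the 8 erythroid markers to 131 to 297 and 83.2 to 810.2, both highest in old mouse 6. The lineage antibodies of the sort, which include CD11b, GR1 and TER119, are meant to remove such cells, and the part of such cells in the values of *Mpo* and *Elane* was not tested.

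**Figure D4:**
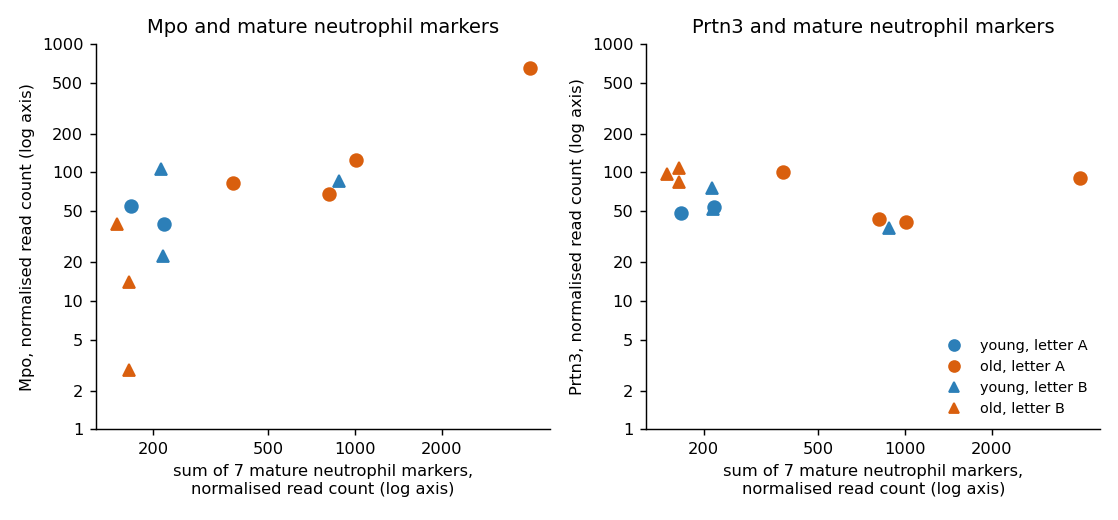
Normalised read counts of *Mpo* (left) and *Prtn3* (right) against the summed normalised read count of 7 neutrophil markers (log axes), with 1 point per mouse, coloured by age (blue young, orange old) and shaped by label letter (circles A, triangles B). The axis calls these markers mature, but their sum does not tell the stage of the cells. Old mouse 6, at a marker sum of 4035, has the highest *Mpo*, the mice near 149 to 218 span *Mpo* values from 2.92 to 106, and *Prtn3* shows no such rise.

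*Csf3r*, the receptor for G-CSF, had the smallest ratio of the highest to the lowest mouse among the members, 2.32. It was 131 and 97.1 in young mice 1 and 2 and 120.2, 95.5, 222 and 99.6 in old mice 1, 5, 6 and 7 with letter A, and 145, 218 and 114 in young mice 3, 4 and 5 and 203, 187 and 205 in old mice 2, 3 and 4 with letter B. The mean of young mice was 141 ± 46.8 (SD, n = 5) and that of old mice 162 ± 54.6 (SD, n = 7), a log2 difference of 0.18 ± 0.26 (SE, limma adjusted p = 1.0; exact permutation test, p = 0.544). The young and old ranges covered each other almost entirely. Of the 50-base words of *Csf3r*, 10.7% also occur in other genes, the most in *AC105061.2*.

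*Csf1r*, the receptor for M-CSF, was 15.2 and 25.5 in young mice 1 and 2 and 24.0, 65.5, 43.4 and 33.2 in old mice 1, 5, 6 and 7 with letter A. With letter B it was 11.8, 9.61 and 17.6 in young mice 3, 4 and 5 and 13.9, 20.2 and 3.69 in old mice 2, 3 and 4. The 3 highest values were in old mice 5, 6 and 7 with letter A. Per kb of exon, the olfactory benchmark of these mice was 11.7, 6.16 and 11.8, and only old mouse 6 exceeded its benchmark. Means were 15.9 ± 6.16 (SD, n = 5) and 29.1 ± 20.5 (SD, n = 7), a log2 difference of 0.53 ± 0.51 (SE, limma adjusted p = 1.0; exact permutation test, p = 0.396), and it was 0.94 ± 0.45 within letter A and −0.25 ± 0.58 within letter B. Of the words of *Csf1r*, 14.3% occur in other genes, the most in *Hmgxb3*, which overlaps it on the opposite strand.

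*Spi1*, which encodes PU.1, was the transcription factor gene with the highest level. It was 59.7 and 54.3 in young mice 1 and 2 and 38.9, 45.8, 69.4 and 29.5 in old mice 1, 5, 6 and 7 with letter A, and 51.2, 81.6 and 76.7 in young mice 3, 4 and 5 and 78.4, 98.3 and 69.2 in old mice 2, 3 and 4 with letter B. Means were 64.7 ± 13.6 (SD, n = 5) and 61.4 ± 24.3 (SD, n = 7), and the log2 difference was −0.15 ± 0.27 (SE, limma adjusted p = 1.0; exact permutation test, p = 0.61). The direction differed between the letters, −0.37 ± 0.39 for A and 0.24 ± 0.23 for B, without a call of that difference (limma adjusted p = 1.0). Per kb of exon, *Spi1* was below *Cebpb* in young mouse 3 and in old mice 2 and 4.

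*Cebpb* followed the letter more than the age. It was 8.40 and 18.7 in young mice 1 and 2 and 14.9, 21.3, 27.4 and 9.84 in old mice 1, 5, 6 and 7 with letter A, against 44.1, 32.2 and 24.7 in young mice 3, 4 and 5 and 53.6, 38.2 and 45.7 in old mice 2, 3 and 4 with letter B. Means were 25.6 ± 13.5 (SD, n = 5) and 30.1 ± 16.3 (SD, n = 7), a log2 difference between the ages of 0.21 ± 0.43 (SE, limma adjusted p = 1.0; exact permutation test, p = 0.681). Its single exon is overlapped by *Tmem189* on the opposite strand. Of its words, 18.1% are shared with other genes, the most with *Tmem189*.

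*Cebpa*, whose product is needed to form granulocyte and monocyte progenitors, was barely above the minimum mean of 10 and rested on 6 to 52 reads per mouse. It was 6.84 and 15.4 in young mice 1 and 2 and 23.1, 10.3, 17.5 and 8.61 in old mice 1, 5, 6 and 7 with letter A, and 5.30, 1.18 and 6.46 in young mice 3, 4 and 5 and 4.81, 12.1 and 10.1 in old mice 2, 3 and 4 with letter B. Means were 7.03 ± 5.18 (SD, n = 5) and 12.3 ± 6.07 (SD, n = 7). The log2 difference, 0.87 ± 0.58 (SE), was the largest of the 8 in this fit, though not with edgeR or DESeq2, where that of *Elane* was larger, and it was not called (limma adjusted p = 1.0; exact permutation test, p = 0.0985). Without young mouse 2 or old mouse 2, the exact permutation test gave p = 0.0273 and p = 0.0433, neither adjusted for the 8 genes tested.

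**Figure D5:**
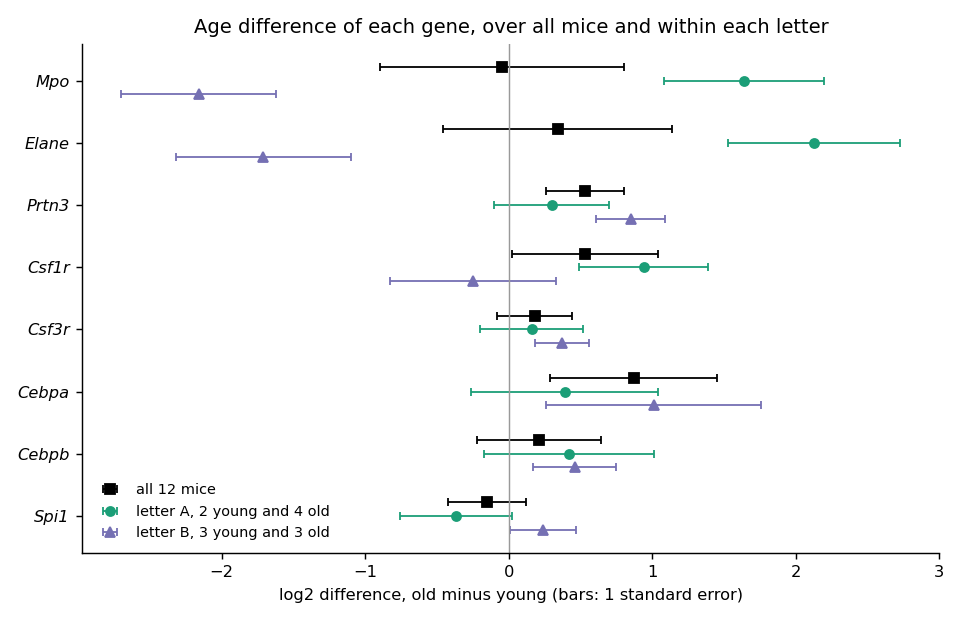
Log2 difference between old and young mice (points) with 1 standard error (bars) for each gene, over all 12 mice (black squares), in mice with letter A (green circles) and in mice with letter B (purple triangles). The standard errors are those of limma, which rest partly on the variance of other genes. For *Mpo* and *Elane* the letters lie on opposite sides of 0, at 1.64 and −2.16 and at 2.13 and −1.71, while for *Prtn3*, *Csf3r*, *Cebpa* and *Cebpb* all points are above 0.

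More members were called between the letters than between the ages. In a limma fit with age and letter, *Cebpb* (1.33 ± 0.29 on the log2 scale, SE, limma adjusted p = 0.00156), *Spi1* (0.62 ± 0.22, limma adjusted p = 0.0279) and *Csf3r* (0.56 ± 0.21, limma adjusted p = 0.034) were higher in mice with letter B. These are 3 of 8 members, against 10.5% of tested genes. *Mpo* (−1.89 ± 0.59, limma adjusted p = 0.0147) and *Csf1r* (−1.31 ± 0.37, limma adjusted p = 0.00909) were lower with letter B, 2 of 8 members against 25.6% of tested genes. *Elane* (−1.45 ± 0.60) had an adjusted p of 0.0576, and *Cebpa* and *Prtn3* were not called. Rescaling the libraries by median ratios shifted the median letter difference of all genes from −0.09 to 0.24 and the calls of all genes from 1301 higher and 3161 lower to 3356 higher and 2288 lower. The directions of the 7 members that could then be tested did not turn, and relative to the median of all genes *Cebpb* was 1.42 above it in the first scaling and 1.38 in the second, and *Mpo* lay at −1.80 and −1.85. With edgeR on the recovered reads, *Mpo* and *Csf3r* were no longer called (adjusted p = 0.0609 and 0.0607), whereas *Prtn3* was called after rescaling (0.67, limma adjusted p = 0.0368) and *Elane* with a minimum mean of 1 (limma adjusted p = 0.0361). The letters also separated depth and the olfactory benchmark, and the part of these in the letter differences was not tested.

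None of the other myeloid genes, taken as lists, was called between the ages over all mice without a covariate. Of 17 tested granule and effector genes, 12 were above 0 and 0 were called, with a median log2 difference of 0.28, and 3 had an unadjusted p under 0.05, against 3.95% of all tested genes. Among these were *Hk3*, a hexokinase of myeloid cells (42.8 ± 8.75 in young, 63.9 ± 12.3 in old, SD, n = 5 and 7, limma adjusted p = 0.873) and *Ctsc*, whose product cathepsin C activates elastase and proteinase 3 (127 ± 20.6 and 176 ± 32.7, limma adjusted p = 0.99). The remaining gene of these 3 was lower in old mice. Of 14 tested myeloid receptors, 7 were above 0, 0 were called and the median was 0.10. The 3 with the smallest p were *Cxcr4*, *Tlr4* and *Cd33*, with log2 differences of −0.42, 0.34 and 0.63 (limma adjusted p = 1.0 for each). Of 24 tested transcription factor genes, 12 were above 0, 0 were called and the median was −0.00. *Maf*, a bZIP factor of macrophages and other cells, came closest (30.8 ± 12.3 in young and 67.3 ± 18.7 in old, SD, log2 difference 1.13 ± 0.25, SE, limma adjusted p = 0.129), and with the letter as a covariate it was the 1 gene of this list called (limma adjusted p = 0.0337). *Bcl6* (0.74) and *Irf5* (−0.71) had limma adjusted p = 0.796 and 1.0. The median over all tested genes was −0.02.

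For comparison, 0 of 15 tested lymphoid priming genes were called, with a median of −0.03 and the smallest p for *Flt3* (log2 difference −0.87, limma adjusted p = 0.78), *Bach2* (0.52, 0.955) and *Il2rg* (0.52, 1.0). Of 12 tested megakaryocyte and platelet priming genes, 1 was called, *Selp*, which encodes P-selectin (98.5 ± 22.6 in young and 407 ± 169 in old, SD, log2 difference 1.93 ± 0.32, SE, limma adjusted p = 0.0225), and the median was 0.16. With the letter as a covariate *Itgb3* was called in addition (1.09 ± 0.18, limma adjusted p = 0.000958). Whether the lists differ from each other was not tested. Between the letters, 10 of the 24 transcription factor genes were called higher and 3 lower with letter B, against 0 and 5 of the 17 granule and effector genes and 0 and 7 of the 14 receptors, so that *Cebpb* and *Spi1* on one side and *Csf1r* on the other went with most calls of their own lists, and *Csf3r* against those of the receptors. For the lymphoid list these counts were 2 and 7 of 15, and for the megakaryocyte list 5 and 1 of 12, beside 10.5% and 25.6% of all tested genes. After rescaling by median ratios, these counts were 13 and 3 for the transcription factor genes and 0 and 5 for the granule and effector genes. They were 0 and 7 for the receptors, 4 and 5 for the lymphoid list and 7 and 0 for the megakaryocyte list. Of all 11861 genes tested after rescaling, 3356 were called higher and 2288 lower with letter B.

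Across the 12353 other tested genes, likeness to *Mpo* was measured as the mean of the Pearson correlations in the 2 letters (6 mice each, log2 values centred on age means). *Elane* ranked 1 with a mean r of 0.97. The 5 genes that followed among non-members were *Rbm12b1* (0.92), *Rflnb* (0.92), *Ghdc* (0.91), *Rcc1*, a nuclear exchange factor for the GTPase Ran (0.90), and *Srsf4*, a splicing factor (0.89), none of them a granule gene. They varied far less than *Mpo* in level, for example between 41.8 and 133 normalised read counts for *Srsf4*, the highest of the 5 in mean value. *Rbm12b1* and *Rflnb* were lower, at 4.92 to 31.2 and 3.69 to 40.1, and rest on fewer reads. *Spi1* ranked 32 (0.80), *Csf1r* 764 (0.50), *Csf3r* 908 (0.48), *Cebpb* 3284 (0.26), *Prtn3* 4547 (0.17) and *Cebpa* 8900 (−0.11). The 7 neutrophil markers had r with *Mpo* from 0.61 (*S100a9*) to 0.95 (*Ngp* and *Lcn2*) for letter A. For letter B their r lay between 0.03 (*Camp*) and 0.37 (*Ltf*). With letter A, old mouse 6 had both the highest *Mpo* and the highest sum of these markers. The r of the markers without that mouse was not computed. These correlations are descriptions over few mice, which share their libraries' depth, and the median over all genes was 0.07.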

How the data were processed

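LSK-SLAM cells of 5 young and 7 old mice were measured by RNA-seq, and each mouse was assigned to its age through the sample labels. The authors deposited 1 column of normalised read counts per mouse, a signal that they made from the reads of each gene by scaling for library size and composition, per M reads. According to the submitters' processing notes, FastQC 0.11.8, STAR 2.5.4b and edgeR 3.24.3 were used with mm10. The counting tool and strand setting are not given in the sources used here. A second deposited table with the authors' own fold changes and p-values was not used. In all mice, 100% of values were whole reads within 0.01 read, and reads were recovered from them.

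Members and gene lists were chosen with earlier results of these data known. Every member with a row was named, and from other lists the called genes or the 3 with the smallest p, and the 5 genes most like *Mpo*, except for 1 gene that is not reported here. Ages were compared with limma 3.58.1 in R 4.3.3 (trend, log2(value + 1), minimum mean 10, Benjamini-Hochberg adjustment), a design written for normalised values and kept after reads had been recovered. Fold differences of genes with low values are understated on this scale. The letter and the interaction of age and letter were fitted in the same way, where letters were coded as B minus A. For single members the difference of mean log2 values was tested by an exact permutation test, two-sided, over all splits of the mice. Recovered reads were also tested with edgeR 4.0.16 and DESeq2 1.42.0, and the limma steps were tested on simulated data. Correlations used log2(value + 1) centred on age means within each letter, with p over all 720 orders of 6 mice. Centring makes the values depend on each other, so these p-values are approximate. Exon lengths, positions and 50-base words came from GENCODE vM21 (18745 of 18762 identifiers matched), and promoters from RefSeq, where 6 of the 8 members matched. Python 3.11.15 with pandas 2.3.3, numpy 2.4.6, scipy 1.17.1 and matplotlib 3.10.9 was used for the rest. Alternatives were other pseudocounts and minimum means, no trend, the letter as a covariate or alone, leaving out each mouse, count tests, a replicate block and scaling by median ratios.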

Additional observations from a re-analysis of the deposited data

Results flagged for a closer look

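In old mouse 6, *Mpo* was 651 normalised read counts, against 2.92 to 125 in the other 6 old mice, and the gap to the next mouse took up 0.812 of the range of the group, above Dixon's 95% critical value for 7 samples. *Elane* stood apart in the same mouse, at 288 against 1.56 to 48.9, with the gap at 0.835 of the range. These were 2 of 16 groups looked at (8 genes in 2 ages), and chance flags about 1 in 20 groups of normally distributed values. The rule was used on untransformed normalised read counts, not on the log2 scale of the age comparison, so this rate may not hold here. *Mpo* and *Elane* also moved together, so the 2 flags are not separate results. Old mouse 6 had the highest sum of neutrophil markers (4035) as well, and the part of such cells was not tested.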

How the results depend on the processing

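The number of members called between the ages was 0 in all alternatives over all mice, with each mouse left out (0 to 0), and 1 in letter B alone (*Mpo*, −2.16). The number of all genes called, 13, was 57 with DESeq2, 43 with edgeR and the letter, 37 with the letter as a covariate, 30 with the letter and without old mouse 6, 1 in letter A alone, 100 in letter B alone, 22 with a minimum mean of 30, 2 without trend, 5 after rescaling by median ratios, and 3 to 32 with 1 mouse left out. *Mpo* turned to 1.19 (DESeq2), 1.18 (edgeR), 1.64 (letter A alone) and 0.08 (pseudocount 5, also in the exact test), and lay between −0.65 and 0.58 with 1 mouse left out. In letter B alone, *Elane* (−1.71), *Csf1r* (−0.25) and *Spi1* (0.24) turned, and *Elane* turned to −0.33 with the letter and without old mouse 6. With 1 mouse left out, *Elane*, which was 1.47 with DESeq2 and 1.46 with edgeR, lay between −0.24 and 0.89 and *Cebpb* between −0.12 (without young mouse 1) and 0.45. The interaction of *Cebpb* turned from 0.04 to −0.04 with edgeR, and interaction calls fell from 2 to 1 without old mouse 6. Members called between the letters fell from 5 to 3 with edgeR. The correlation of *Elane* and *Prtn3* in letter B turned from 0.02 to −0.09 after rescaling, and that of *Mpo* and *Elane* in letter A (0.95) had an adjusted p of 0.0611 when the 2 relations of *Plppr3* were added to the family. The causes were not tested. These fits with edgeR for the letter and the interaction, and those without old mouse 6, were chosen after seeing the data. *Cebpa* could not be tested after rescaling, where its mean was under the minimum.

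The replicate numbers are shared between the ages but come from different animals, and deviations of same-numbered mice correlated at 0.18, 0.402 and 0.615 in the 3 pairs that share a letter and at −0.559 and 0.0437 in the 2 that do not. Not every pair was above 0.1, and the numbers were not taken to pair the mice, where number and letter cannot be told apart. With replicates 1 to 5 as a block, 19 genes and 0 members were called, against 8 and 0 in the same mice without the block, and *Elane* was −0.39 in both. The lowest read numbers behind a value were 6 for *Cebpa*, 8 for *Elane* and *Cebpb*, 15 for *Mpo* and 19 for *Csf1r*.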
